A study of Homo sapiens with 12 samples.

Results

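The 10 genes that encode chemokines, inflammatory cytokines and feedback inhibitors of NF-kB described here were followed in melanoma cells exposed to a RAF inhibitor. They were the rows of the expression tables whose symbol was CXCL1, CXCL2, CXCL3, IL8 (the older symbol of CXCL8), CCL2, IL6, IL1A, IL1B, NFKBIA or TNFAIP3, 10 of 23273 genes listed. All 10 were found in the tables of both cell lines. RNA was sequenced from COLO858 and MMACSF, established BRAF-mutant melanoma cell lines grown in culture, after DMSO (the vehicle) or 0.2 μM vemurafenib, an inhibitor of mutant BRAF, for 24 h or 48 h. Each line gave 2 DMSO libraries, 2 at 24 h and 2 at 48 h, or 12 libraries in all. DMSO was also given for 24 h and 48 h, and which of these cultures the DMSO libraries came from is not stated. Each line stands for 1 tumour, its replicates were culture plates, and p-values therefore measure the spread between plates.

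NF-kB is a family of transcription factors held in the cytoplasm by IkB proteins, and IKK kinases release it by marking IkB for degradation. Active NF-kB raises transcription of chemokines such as IL8 and CXCL1, of cytokines such as IL6 and IL1B, and of its own inhibitors IkB-alpha (encoded by NFKBIA) and A20 (encoded by TNFAIP3). In melanoma, CXCL1 and IL8 are known as growth and attraction factors secreted by the tumour cells, and MAP kinase signalling through AP-1 factors also acts on several of these promoters.

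The loci are given in GRCh37, the assembly called hg19 in the processing notes, from the GENCODE annotation. The CXC chemokines lie in a cluster on chromosome 4, with IL8 at chr4:74606236-74609433 and CXCL1 at chr4:74735110-74737025 on the plus strand, and CXCL3 at chr4:74902306-74904524 and CXCL2 at chr4:74962757-74964913 on the minus strand. IL1A (chr2:113531502-113542070) and IL1B (chr2:113587328-113594393) neighbour each other on the minus strand. The others lie apart, TNFAIP3 at chr6:138188351-138204451 (plus strand), IL6 at chr7:22765503-22771621 (plus), NFKBIA at chr14:35870285-35873955 (minus) and CCL2 at chr17:32582293-32584227 (plus). All 10 are annotated as protein-coding.

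The promoters were read because the members share a regulator and those with a measurable level did not move together. RefSeq windows of 300 bases (250 before the transcription start and 50 after, assembly GRCh38.p14) were given for 9 of the 10 genes, with 2 starts for IL1A and none for CCL2. A kappaB core written GGANNTTCC was sought on both strands, and was held by 7 of the 9 genes and by 4.56% of all 35116 windows. The members are known NF-kB targets, so that share is a description of the chosen genes. The matches lay between 91 and 59 bases before the start, with another one further upstream in NFKBIA. They are shown with 10 flanking bases each side where the window allowed, in the direction of transcription and with the match in capitals, so that the 3 closely related CXCL promoters can be set beside the others.
CXCL1: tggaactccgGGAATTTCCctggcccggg
CXCL2: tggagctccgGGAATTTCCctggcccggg
CXCL3: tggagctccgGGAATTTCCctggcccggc
IL8: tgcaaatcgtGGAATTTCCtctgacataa
IL6: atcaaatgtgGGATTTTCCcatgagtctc
TNFAIP3: acgtgactttGGAAAGTCCcgtggaaatc
NFKBIA, near: tgactggcttGGAAATTCCccgagcctga
NFKBIA, far: ggtcggaaGGACTTTCCagccactcgg

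CXCL1, CXCL2, CXCL3 and IL8 held the same 9 letters, and the TNFAIP3 match reads as the core on the opposite strand. No match to these letters lay in the windows of IL1A and IL1B, which says nothing of other sites. An AP-1 site written TGANTCA, sought on both strands, was held by IL8 and IL1A and by 7.71% of all windows. TATAAA, also sought on both strands, lay 31 bases before the start of IL8 and 33 before that of NFKBIA, and once further upstream in 1 of the IL1A windows, against 11.5% of all windows. Neither of these overlapped a kappaB match in the member windows.

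The 150 bases before the start follow for the 4 genes on which the results below turn: the 3 whose transcripts changed in at least 1 line and NFKBIA, which passed the test in neither. Capitals mark the kappaB core and, in IL8, the AP-1 match upstream of it. The regions are chr4:73740419-73740568 (plus strand) for IL8, chr4:73869243-73869392 (plus) for CXCL1, chr6:137867109-137867258 (plus) for TNFAIP3 and chr14:35404750-35404899 (minus) for NFKBIA, in GRCh38.p14.
IL8: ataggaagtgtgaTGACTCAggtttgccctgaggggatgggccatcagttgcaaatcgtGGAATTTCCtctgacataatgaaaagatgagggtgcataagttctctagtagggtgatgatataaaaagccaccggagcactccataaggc
CXCL1: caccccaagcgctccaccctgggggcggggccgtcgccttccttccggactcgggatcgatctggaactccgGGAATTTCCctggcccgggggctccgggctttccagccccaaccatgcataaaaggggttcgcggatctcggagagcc
TNFAIP3: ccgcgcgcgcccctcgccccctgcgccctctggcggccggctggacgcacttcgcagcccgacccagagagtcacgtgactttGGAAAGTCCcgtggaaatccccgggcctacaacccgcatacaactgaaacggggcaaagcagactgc
NFKBIA: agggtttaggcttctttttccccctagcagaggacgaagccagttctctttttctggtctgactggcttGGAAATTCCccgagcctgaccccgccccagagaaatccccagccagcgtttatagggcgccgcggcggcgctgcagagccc

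**Figure D1:**
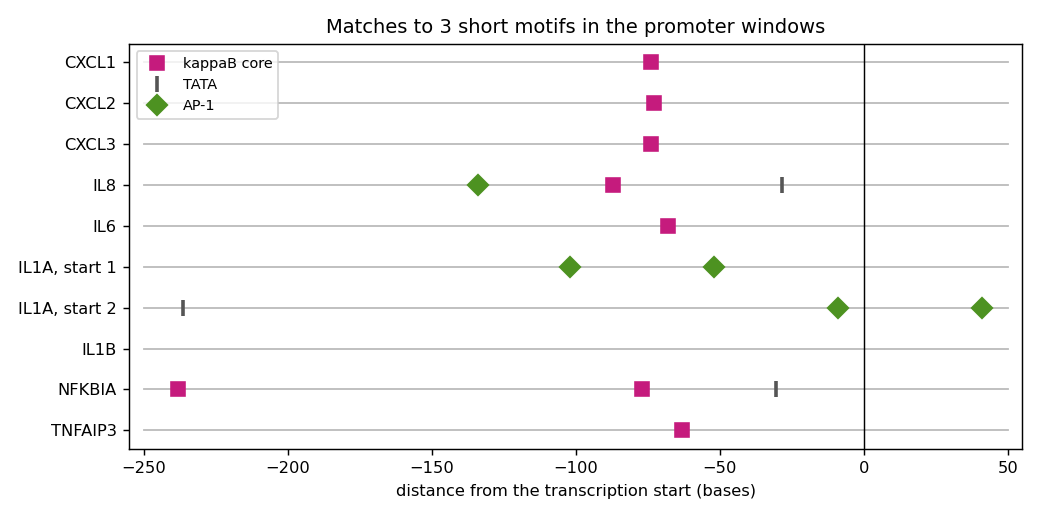
Matches to the kappaB core, AP-1 and TATA motifs in the 10 promoter windows of 9 genes, drawn by their distance from the transcription start in bases (x axis), 1 row per window. The kappaB matches of CXCL1, CXCL2, CXCL3, IL8, IL6 and TNFAIP3 and the nearer one of NFKBIA line up between 91 and 59 bases before the start, and IL1B has no mark.

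Levels were read as FPKM (sequenced fragments counted per kilobase of a transcript and relative to all mapped fragments), which corrects for transcript length, so genes can be set side by side within a line. The 2 lines were deposited in separate tables, and only changes against a line's own DMSO are compared between them. Read numbers cannot be had from FPKM, so the depth is unknown. Genes that every cell uses, such as TUBB and DDX39B, were listed at 0 in 12 of 12 libraries, as were TNF and IER3, 2 further NF-kB target genes. An exact 0 can therefore be a failed estimate and is reported only as listed at 0. TUBB, DDX39B, TNF and IER3 all lie between chr6:30685212 and chr6:31546113 in GRCh37, a stretch that holds no member. Whether a 0 of a member is a failed estimate was not tested. Replicates correlated at Pearson's r of 0.966 to 0.976 on log2(FPKM + 1) over genes, which are not independent replicates.

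In DMSO the members were ordered by level within each line. COLO858 held TNFAIP3 at 23.8 and 25.9 FPKM, then NFKBIA at 7.20 and 8.71, then IL8 at 2.87 and 4.76, and these 3 ranges did not overlap. MMACSF held CXCL1 at 32.6 and 36.1 FPKM, then NFKBIA at 9.87 and 8.94, then TNFAIP3 at 2.90 and 2.88. CCL2 followed at 1.90 and 1.74 FPKM and IL8 at 0.904 and 1.77, and these last 2 overlapped. Every other member stayed below 1 FPKM in every library of the line, and 3 of 10 members in COLO858 and 5 of 10 in MMACSF reached the group mean of 1 FPKM in any group that the test required. IL8 reached it in both lines only through DMSO, so a fall was the only change it could show there.

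**Figure D2:**
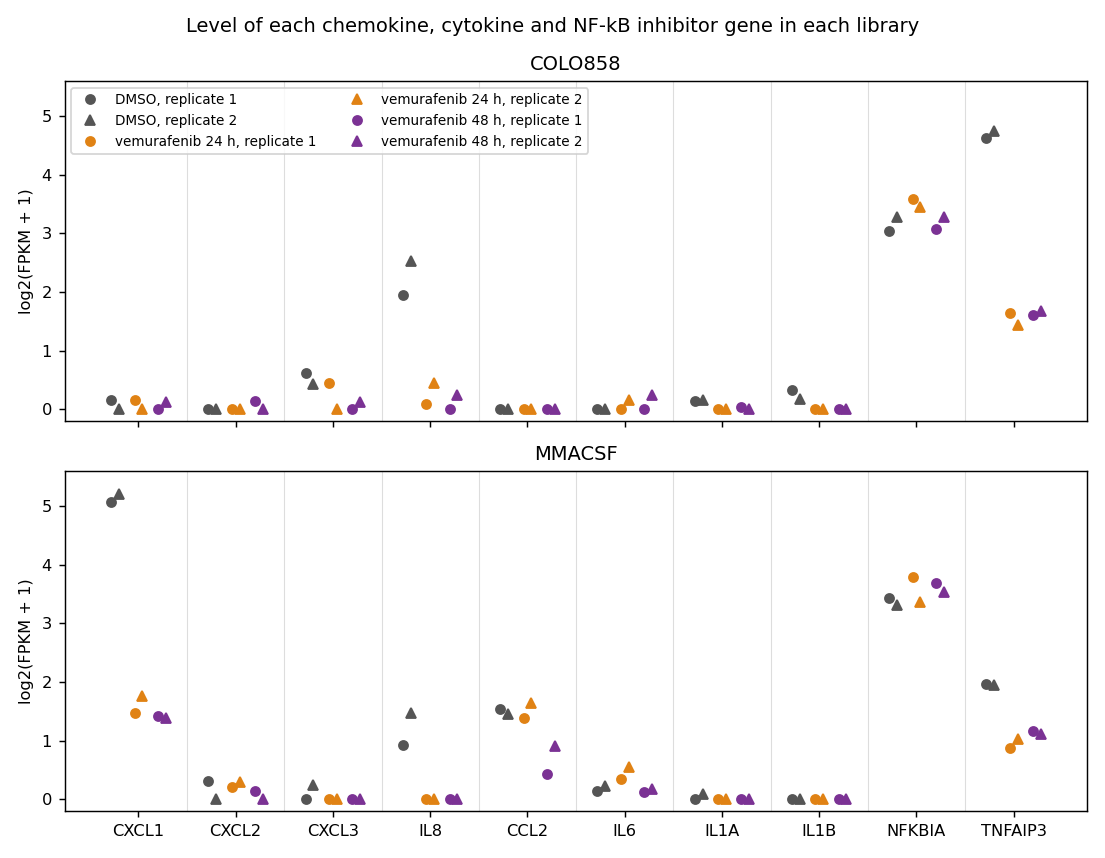
Level of each of the 10 genes in each library as log2(FPKM + 1), COLO858 above and MMACSF below; colours mark DMSO, 24 h and 48 h of vemurafenib, circles replicate 1 and triangles replicate 2. TNFAIP3 in COLO858 (23.8 and 25.9 FPKM in DMSO) and CXCL1 in MMACSF (32.6 and 36.1) stand highest in DMSO and drop in all 4 vemurafenib libraries, while NFKBIA stays between 7.20 and 12.8 FPKM.

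Under vemurafenib, the transcripts called lower were TNFAIP3 and IL8 in COLO858 and CXCL1 in MMACSF, at both times. In MMACSF, TNFAIP3 and IL8 also lay below both DMSO libraries in every vemurafenib library, without a call. No tested member was called higher, and both times were set against the same 2 DMSO libraries of a line. The test was limma on log2(FPKM + 1) in all 6 libraries of a line, with Benjamini-Hochberg adjustment over all genes tested and a threshold of adjusted p under 0.01. In COLO858, 2 members were lower at 24 h and the same 2 at 48 h, where 5.71% and 4.73% of 12696 genes were called lower and 4.11% and 4.74% higher. IL8, among these 2, was tested through its DMSO level alone, so only a fall could be called for it. In MMACSF, 1 member was lower at each time, where 3.60% and 5.41% of 12599 genes were called lower and 2.22% and 3.42% higher. In bulk RNA, fewer cells that make a transcript and less transcript per cell cannot be told apart.

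TNFAIP3 encodes A20, a ubiquitin-editing enzyme that shuts off signalling to IKK. In COLO858 its level was 23.8 and 25.9 FPKM in DMSO, 2.11 and 1.72 at 24 h, and 2.04 and 2.19 at 48 h. All 4 vemurafenib libraries lay far below both DMSO libraries, and the 24 h and 48 h ranges overlapped. Group means were 24.9 ± 1.501 FPKM (SD, n = 2) in DMSO, 1.91 ± 0.274 at 24 h and 2.12 ± 0.109 at 48 h, 13.0-fold and 11.8-fold lower. The log2 change was -3.15 ± 0.15 (SE) at 24 h (adjusted p = 0.000678 by limma) and -3.05 ± 0.15 at 48 h (adjusted p = 0.000552). By the size of the change it stood 46 among the 725 genes called lower at 24 h and 38 among the 600 at 48 h.

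In MMACSF the same gene lay below NFKBIA in the DMSO libraries, at 2.90 and 2.88 FPKM in DMSO, and was at 0.841 and 1.03 at 24 h and at 1.23 and 1.16 at 48 h. No vemurafenib library reached the DMSO range. Group means of 2.89 ± 0.0102 (SD, n = 2), 0.937 ± 0.136 and 1.20 ± 0.0545 FPKM differed 3.09-fold at 24 h and 2.42-fold at 48 h. The log2 changes of -1.01 ± 0.15 (SE, adjusted p = 0.0109 by limma) and -0.83 ± 0.15 (adjusted p = 0.0153) did not pass the threshold. At 24 h the value passed with either rescaling of the libraries (adjusted p = 0.00824 and 0.00847) and without limma's trend (adjusted p = 0.00779).

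CXCL1 encodes a chemokine that binds CXCR2 and draws neutrophils. In MMACSF it was at 32.6 and 36.1 FPKM in DMSO, 1.77 and 2.38 at 24 h, and 1.68 and 1.61 at 48 h. It was the most abundant of the 10 transcripts in DMSO and lay below NFKBIA in every vemurafenib library. Group means fell from 34.3 ± 2.46 FPKM (SD, n = 2) to 2.07 ± 0.431 at 24 h and 1.64 ± 0.0525 at 48 h, 16.6-fold and 20.9-fold lower. The log2 change was -3.53 ± 0.16 (SE) at 24 h (adjusted p = 0.000629 by limma) and -3.74 ± 0.16 at 48 h (adjusted p = 0.000418), standing 30 among 454 genes called lower and 40 among 682.

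In COLO858, CXCL1 was hardly listed at all, at 0.108 and 0 FPKM in DMSO, 0.109 and 0 at 24 h, and 0 and 0.0905 at 48 h. The groups overlapped and the gene was too low to be tested there. Its close relatives CXCL2 and CXCL3, which encode ligands of the same receptor, were low in both lines. CXCL2 was above 0 in 1 of 6 COLO858 libraries, at 0.104 FPKM at 48 h, and in MMACSF was at 0.245 and 0 in DMSO, 0.155 and 0.230 at 24 h, and 0.0996 and 0 at 48 h.

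CXCL3 in COLO858 was at 0.530 and 0.338 FPKM in DMSO, 0.360 and 0 at 24 h, and 0 and 0.0920 at 48 h, with the 48 h libraries below both DMSO libraries. Of the MMACSF libraries it was above 0 in a single DMSO library, at 0.181. Reads of these 3 genes can be hard to assign. Of the 1125 stretches of 50 bases (the read length) in the longest CXCL1 transcript, 5.33% occurred unchanged and 31.1% with up to 2 mismatches in transcripts of CXCL2, CXCL3 or IL8. For CXCL2 these shares were 10.1% and 41.2%, for CXCL3 5.26% and 17.8%, and for IL8 0 of 1593 stretches at either setting. How shared reads were placed is not given in the sources used here, so the split among CXCL1, CXCL2 and CXCL3 is uncertain.

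IL8 encodes the neutrophil chemokine that signals through CXCR1 and CXCR2. In COLO858 it was at 2.87 and 4.76 FPKM in DMSO, 0.0598 and 0.356 at 24 h, and was listed at 0 and at 0.175 at 48 h. No vemurafenib library came near either DMSO library. The log2 change of FPKM + 1 was -1.98 ± 0.25 (SE) at 24 h (adjusted p = 0.00582 by limma) and -2.12 ± 0.25 at 48 h (adjusted p = 0.00518). Both calls were lost when any 1 of the 4 libraries compared was left out, with adjusted p from 0.0132 to 0.0362 at 24 h and from 0.0131 to 0.0344 at 48 h, and the direction was kept. Adding 0.1 in place of 1 FPKM before the log also ended them (-3.81, adjusted p = 0.0219, and -4.52, adjusted p = 0.0137), as did fitting only the groups compared (adjusted p = 0.0120 and 0.0102).

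In MMACSF, IL8 was at 0.904 and 1.77 FPKM in DMSO and was listed at 0 in all 4 vemurafenib libraries. The groups did not overlap, and no fold is given against groups listed at 0. The fitted log2 difference of -1.20 ± 0.22 (SE) depends on the constant added and did not pass (adjusted p = 0.0196 at 24 h and 0.0163 at 48 h, limma). With small RNA genes left out and the rest rescaled, the adjusted p was 0.00834 and 0.00691.

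CCL2 encodes a chemokine that draws monocytes through CCR2. It was listed at 0 in 6 of 6 COLO858 libraries. In MMACSF it was at 1.90 and 1.74 FPKM in DMSO, 1.63 and 2.11 at 24 h, and 0.347 and 0.877 at 48 h. The 24 h libraries spanned the DMSO range and both 48 h libraries lay below every other library. The log2 change was 0.02 ± 0.22 (SE) at 24 h (adjusted p = 0.957 by limma) and -0.82 ± 0.22 at 48 h, with a 95% interval of -1.37 to -0.28 and an adjusted p of 0.0458 that did not pass.

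The cytokines IL6, IL1A and IL1B were too low to be tested in either line. IL6, which signals through gp130 to STAT3, was listed at 0 in 4 of 6 COLO858 libraries, with 0.109 FPKM in a 24 h library and 0.178 in a 48 h library. MMACSF held IL6 at 0.106 and 0.175 FPKM in DMSO, 0.272 and 0.468 at 24 h, and 0.0857 and 0.122 at 48 h. There the 24 h libraries were the 2 highest and the DMSO and 48 h ranges overlapped.

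IL1A and IL1B encode the 2 agonist forms of interleukin-1, which activates NF-kB through IL1R1 and IL1RAP. In COLO858, IL1A was at 0.101 and 0.118 FPKM in DMSO, 0 and 0 at 24 h, and 0.0307 and 0 at 48 h. IL1B was at 0.249 and 0.124 FPKM in DMSO and was listed at 0 in the 4 vemurafenib libraries. Both genes were thus highest in the DMSO libraries of COLO858, at levels where no test was run. In MMACSF, IL1A was above 0 in 1 DMSO library (0.0630 FPKM) and IL1B was listed at 0 in 6 of 6.

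NFKBIA encodes IkB-alpha, the inhibitor that NF-kB induces to restrain itself. It was measurable in all 12 libraries and passed the threshold in no comparison. In COLO858 it was at 7.20 and 8.71 FPKM in DMSO, 11.0 and 9.88 at 24 h, and 7.45 and 8.72 at 48 h. Both 24 h libraries were above the other 4, and the 48 h and DMSO ranges overlapped almost fully. The log2 change was 0.36 ± 0.17 (SE) at 24 h (95% interval -0.06 to 0.77, adjusted p = 0.173 by limma) and 0.02 ± 0.17 at 48 h (-0.40 to 0.44, adjusted p = 0.940).

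In MMACSF, NFKBIA was at 9.87 and 8.94 FPKM in DMSO, 12.8 and 9.27 at 24 h, and 11.9 and 10.6 at 48 h. The 24 h range overlapped that of DMSO, and both 48 h libraries lay above it. The log2 changes were 0.20 ± 0.19 (SE, 95% interval -0.27 to 0.66, adjusted p = 0.494 by limma) and 0.23 ± 0.19 (-0.23 to 0.70, adjusted p = 0.403). The intervals leave room for modest changes in either direction.

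**Figure D3:**
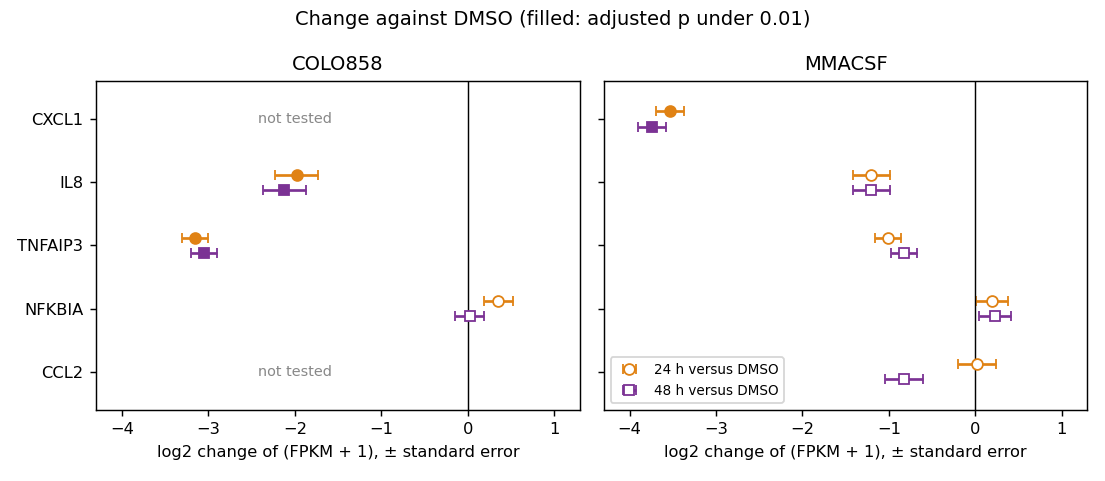
Log2 change of FPKM + 1 against DMSO (x axis, bars ± SE) for the members tested, COLO858 on the left and MMACSF on the right, circles for 24 h and squares for 48 h, filled where the adjusted p was under 0.01. TNFAIP3 in COLO858 (-3.15 and -3.05) and CXCL1 in MMACSF (-3.53 and -3.74) lie farthest from 0, and the NFKBIA bars lie near 0 in both lines.

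Between 24 h and 48 h no member passed the threshold in either line by limma. At an unadjusted p under 0.05 the count was 0 of 3 members in COLO858 and 1 of 5 in MMACSF, which was CCL2 (log2 change -0.85 ± 0.22 SE, adjusted p = 0.415). At the adjusted threshold, 1.17% of all genes were called higher and 0.213% lower between the times in COLO858, and 0.111% and 0.111% in MMACSF. TNFAIP3 moved by 0.10 ± 0.15 on the log2 scale in COLO858 (95% interval -0.28 to 0.47) and CXCL1 by -0.21 ± 0.16 in MMACSF (-0.61 to 0.19).

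The difference between the lines was tested directly, as the change in COLO858 minus the change in MMACSF in 1 limma model of all 12 libraries. TNFAIP3 fell further in COLO858, with a difference of -2.14 ± 0.17 (SE) on the log2 scale at 24 h (adjusted p = 0.000296) and -2.23 ± 0.17 at 48 h (adjusted p = 9.44e-05). At 2.90 and 2.88 FPKM in the MMACSF DMSO libraries, TNFAIP3 had less room to fall on log2(FPKM + 1) there than in COLO858. CXCL1 fell further in MMACSF, with a difference of 3.53 ± 0.19 (adjusted p = 5.82e-05) and 3.73 ± 0.19 (adjusted p = 1.50e-05). With no COLO858 library above 0.109 FPKM, CXCL1 had no room to fall there. The 24 h call for CXCL1 was lost when 0.1 FPKM was added in place of 1 (4.002, adjusted p = 0.0123).

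So 1 member was called in each direction at each time, where 1.78% of 13595 genes were called higher and 1.93% lower at 24 h, and 4.19% and 3.30% at 48 h. IL8 differed by -0.78 ± 0.34 at 24 h (95% interval -1.55 to -0.01, adjusted p = 0.231 by limma) and by -0.92 ± 0.34 at 48 h (-1.69 to -0.15, adjusted p = 0.113), so its change was not shown to differ between the lines. NFKBIA differed by 0.16 ± 0.24 and -0.21 ± 0.24 (adjusted p = 0.811 and 0.662), and CCL2 by -0.02 ± 0.23 and 0.82 ± 0.23 (adjusted p = 0.984 and 0.0427). CCL2 was listed at 0 in every COLO858 library and was tested through MMACSF alone. Its line differences are therefore the MMACSF changes with the opposite sign, and say nothing of a response in COLO858. In the change from 24 h to 48 h, 0 members differed between lines by limma, and 1 of 5 (CCL2) had an unadjusted p under 0.05. At the adjusted threshold, 2.46% of all genes were called higher and 0.508% lower.

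**Figure D4:**
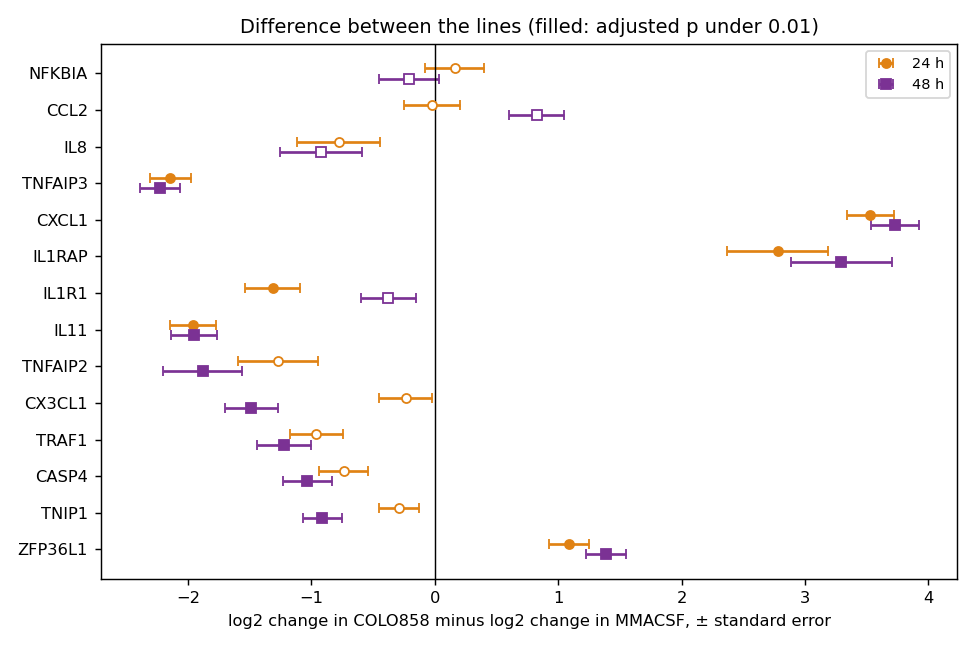
Log2 change in COLO858 minus log2 change in MMACSF (x axis, bars ± SE) at 24 h (circles) and 48 h (squares) for the 5 members tested and for 9 other genes of the pathway called at either time, filled where the adjusted p was under 0.01. CXCL1 (3.53 and 3.73) and IL1RAP (2.78 and 3.29) lie farthest to the right, and TNFAIP3 (-2.14 and -2.23) farthest to the left.

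The rest of the pathway was read through 8 lists holding 83 genes, all found in the tables. By limma, 1 of the 48 tested in COLO858 was higher and 2 lower at 24 h, and 1 was higher and 4 lower at 48 h. In MMACSF 1 of the 54 tested was higher and 0 lower at 24 h, and 0 were higher and 2 lower at 48 h. Over all genes in COLO858, 4.11% were called higher and 5.71% lower at 24 h, and 4.74% and 4.73% at 48 h. For MMACSF these shares were 2.22% and 3.60%, then 3.42% and 5.41%. The median log2 change over the list genes was -0.02 and -0.11 in COLO858 and 0.07 and 0.07 in MMACSF, beside 0.06 and -0.01, and 0.07 and 0.06, over all genes tested. Of the genes for NF-kB subunits (5 of 5 tested) and for the IKK complex and upstream kinases (10 of 10 tested), 0 passed the threshold in either line at either time by limma without a replicate block. At an unadjusted p under 0.05 there were 5 and 4 of these 15 genes in COLO858 at 24 h and 48 h and 1 and 3 in MMACSF. The share of all genes under that unadjusted p was not counted, so these numbers are no result about the lists. With the replicate number as a block 6 and 5 passed in COLO858, NFKB1 and IKBKB among them at both times, and 2 and 6 in MMACSF. Over all 12696 genes in COLO858 the block fit called 2949 higher and 2770 lower at 24 h, and 2590 and 2959 at 48 h. Over all 12599 in MMACSF it called 1651 and 1633, then 1867 and 1923. The block fit thus called many genes of every kind, and its counts for these lists are only a description.

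Of the other NF-kB target genes, 2 of 8 tested in COLO858 were lower at 24 h and 3 at 48 h. Over all genes tested there, 5.71% and 4.73% were called lower. LIF, which encodes leukaemia inhibitory factor, was at 66.5 and 56.0 FPKM in DMSO, 8.61 and 7.43 at 24 h, and 13.5 and 13.7 at 48 h (log2 change -2.79 ± 0.15 SE, adjusted p = 0.000829, and -2.09 ± 0.15, adjusted p = 0.00148, limma). MMACSF libraries held it at 2.39 and 1.34 FPKM in DMSO, 0.0756 and 0 at 24 h, and 0.0278 and 0.0964 at 48 h, which did not pass (adjusted p = 0.0124 and 0.0108). IL11 in COLO858 went from 3.80 and 3.25 FPKM to 0.272 and 0.149 at 24 h and 0.271 and 0.163 at 48 h (-1.90 ± 0.15, adjusted p = 0.00170, and -1.89 ± 0.15, adjusted p = 0.00177). Like IL8, it reached the minimum of the test through DMSO alone, so a fall was the only change it could show. It was at most 0.389 FPKM in MMACSF and not tested there.

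ICAM1, an adhesion molecule that binds leukocyte integrins, fell at 48 h in both lines. It was at 36.2 and 34.7 FPKM in DMSO, 34.4 and 32.7 at 24 h, and 14.9 and 13.97 at 48 h in COLO858 (-1.24 ± 0.12 at 48 h, adjusted p = 0.00343 by limma). MMACSF held it at 91.8 and 86.5, then 66.6 and 57.7, then 40.8 and 37.6 FPKM (-1.17 ± 0.12 at 48 h, adjusted p = 0.00398). The 48 h libraries were the lowest in both lines. CSF1, the macrophage growth factor, rose in MMACSF at 24 h, from 5.601 and 6.04 FPKM to 13.5 and 12.3 (1.03 ± 0.13, adjusted p = 0.00755), and was at 10.1 and 9.93 at 48 h (adjusted p = 0.0174).

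Of the other chemokines, 2 of 15 were tested in COLO858 and 4 of 15 in MMACSF. CX3CL1, which encodes a membrane-bound chemokine, went in COLO858 from 11.98 and 10.1 FPKM to 7.37 and 7.42 at 24 h and 2.65 and 2.96 at 48 h (-1.66 ± 0.15 at 48 h, adjusted p = 0.00260 by limma). All 6 MMACSF libraries held it between 4.34 and 6.67 FPKM. Of the other NF-kB inhibitors (9 of 10 tested in each line), NFKBIZ, a nuclear IkB protein, was called in MMACSF alone. It went from 15.1 and 17.9 FPKM to 5.67 and 7.30 at 24 h (-1.23 ± 0.17, adjusted p = 0.0101) and to 5.37 and 5.99 at 48 h (-1.39 ± 0.17, adjusted p = 0.00592), and its change was not called different between the lines. In COLO858 NFKBIZ also went down without a call, from 2.47 and 3.78 FPKM to 1.37 and 1.86 at 24 h and 1.14 and 1.68 at 48 h.

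Transcripts of chemokines and cytokines are short-lived, and proteins of the ZFP36 family speed their decay. Of the 7 mRNA decay and stability factors tested, ZFP36L1 rose in COLO858, from 13.5 and 13.6 FPKM to 36.9 and 35.6 at 24 h and 50.6 and 56.5 at 48 h (1.36 ± 0.13, adjusted p = 0.00274, and 1.90 ± 0.13, adjusted p = 0.00121, limma). In MMACSF it was at 20.8 and 23.3, then 27.5 and 26.1, then 29.6 and 34.7 FPKM (0.27 ± 0.14 and 0.52 ± 0.14, adjusted p = 0.217 and 0.0451). The difference between lines passed at both times (1.09 ± 0.16, adjusted p = 0.00516, and 1.39 ± 0.16, adjusted p = 0.000904).

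Among the receptors, the change in IL1RAP differed between the lines, with opposite signs. IL1RAP, the co-receptor of interleukin-1, was at 25.8 and 38.0 FPKM in DMSO, 67.8 and 95.9 at 24 h, and 96.0 and 129 at 48 h in COLO858. Its MMACSF levels were 56.4 and 77.1, then 20.0 and 27.8, then 19.7 and 26.2 FPKM. No vemurafenib library entered the DMSO range in either line, upward in COLO858 and downward in MMACSF. Within a line the changes did not pass (adjusted p from 0.0109 to 0.0248 by limma, and from 0.000140 to 0.000801 with the replicate block), but the difference between lines did, at 2.78 ± 0.41 at 24 h (adjusted p = 0.00500) and 3.29 ± 0.41 at 48 h (adjusted p = 0.00124).

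In all, 2 pathway genes differed between lines in each direction at 24 h, and 2 upward and 6 downward at 48 h, of 55 tested. Over all 13595 genes, 1.78% were called higher and 1.93% lower at 24 h, and 4.19% and 3.30% at 48 h. IL11 (-1.96 ± 0.19 and -1.95 ± 0.19) and IL1R1 (-1.31 ± 0.22 at 24 h), the signalling receptor of interleukin-1, had a more negative change in COLO858 than in MMACSF. IL11 exceeded 1 FPKM in the COLO858 DMSO libraries alone and had no room to fall in MMACSF. At 48 h the others were CX3CL1 (-1.49 ± 0.22), TNFAIP2 (-1.88 ± 0.32), an NF-kB target, TRAF1 (-1.22 ± 0.22), a signalling adaptor, CASP4 (-1.03 ± 0.20), an inflammatory caspase, and TNIP1 (-0.91 ± 0.16), a partner of A20. TNIP1 was at 24.9 and 21.9 FPKM in DMSO and 17.4 and 17.3 at 48 h in COLO858, against 23.0 and 25.4 and then 35.7 and 33.9 in MMACSF. IL1R1 reached no more than 1.16 FPKM in COLO858 and TRAF1 no more than 1.07.

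**Figure D5:**
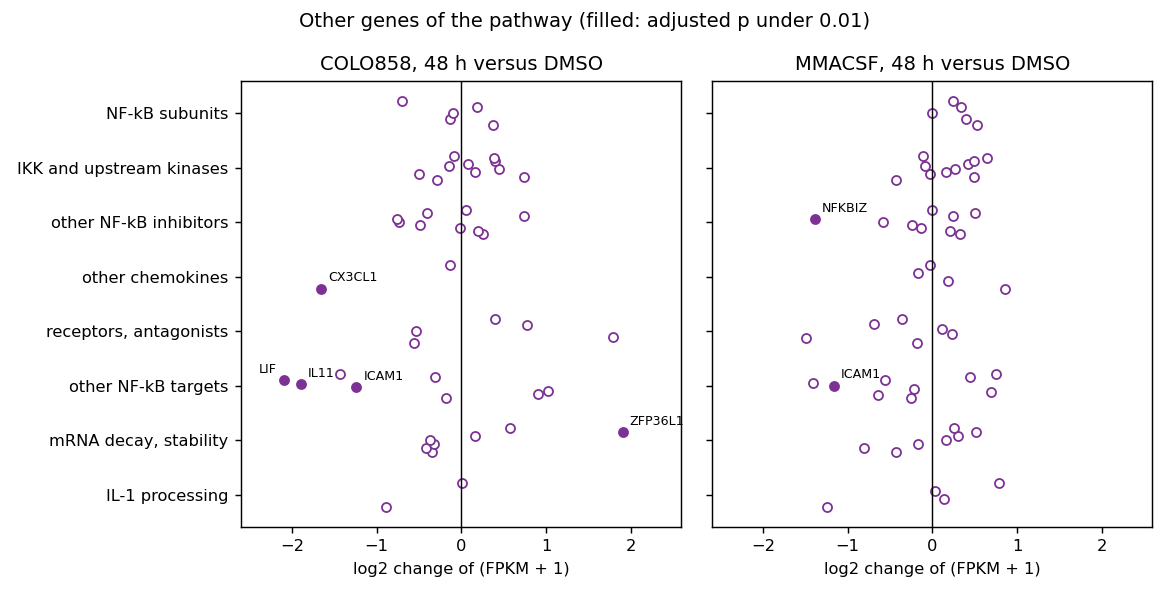
Log2 change of FPKM + 1 at 48 h against DMSO (x axis) for every tested gene of the 8 pathway lists, COLO858 on the left and MMACSF on the right, 1 point per gene, filled and named where the adjusted p was under 0.01. LIF, IL11, CX3CL1 and ICAM1 are named on the left of the COLO858 panel and ZFP36L1 on its right, and only NFKBIZ and ICAM1 are named for MMACSF.

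The genes whose pattern over the 12 libraries was most like a member's were sought among those at 5 FPKM or more in a group of each line, after centring within each line. TNFAIP3 was most like CDK5R1, ELK3 and NPAS2 (Pearson's r of 0.990, 0.989 and 0.989, n = 12 libraries, 8682 candidates). IL8 was most like RPS6KA5, CD200 and IARS (0.989, 0.986 and 0.986), and NFKBIA less closely like SNORA16B, RNU11 and NDNL2 (0.875, 0.868 and 0.840). These values are descriptions: the libraries share lines, groups and scaling, and the highest of many correlations is high by choice.

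The labelled cell type was read from marker genes. Of 8 markers of the melanocytic lineage, 7 reached 1 FPKM in COLO858 and 8 in MMACSF, MLANA being the one below 1 FPKM in COLO858. Their summed level rose alongside the falls above, from 702 to 717 FPKM in DMSO to 3922 to 4158 at 24 h in COLO858, and from 11160 to 11373 to 15589 to 16776 in MMACSF. Abundant genes weigh most in such sums: mean DCT went from 267 to 2915 FPKM in COLO858, and mean PMEL from 7944 to 10657 in MMACSF. By limma, 4 of 7 tested were higher at 24 h in COLO858 and 1 of 8 in MMACSF, and 0 lower. The shares of all genes called higher were 4.11% and 2.22%. Mean MITF in COLO858 was 67.7 FPKM in DMSO and 67.3 at 48 h. Mean S100B in MMACSF went from 819 to 673 at 48 h. Of 8 leukocyte markers 1, LYZ, reached 1 FPKM, while PTPRC was at most 0.242 FPKM in any library, and CD3E and FCGR3A were listed at 0 in all. The summed leukocyte level went from 1.47 to 2.56 FPKM in DMSO to 0.447 to 0.768 at 48 h in COLO858, and from 3.38 to 4.55 to 0.533 to 0.787 in MMACSF. Of the 5 fibroblast markers 4 reached 1 FPKM in COLO858 (sums of 9.14 to 11.9 in DMSO and 18.7 to 28.4 at 48 h) and 3 in MMACSF (57.8 to 79.1 and 20.1 to 28.9), and 0 of 4 endothelial and 0 of 3 keratinocyte markers did. The fibroblast markers did not move together in COLO858, where 1 of 4 tested was called higher and 1 lower at 48 h by limma. The following genes are given by their values and not by a call. LUM went in COLO858 from 5.30 and 8.27 FPKM in DMSO to 15.3 and 25.6 at 48 h, and COL1A1 from 0.186 and 0.168 to 1.54 and 1.15. COL1A2 went from 2.63 and 2.61 to 0.141 and 0.0840. The part of these movements in the results was not tested.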

How the data were processed

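The libraries were poly(A)-selected, stranded mRNA libraries with ERCC spike-ins, read as single reads of 50 bases. The values deposited are FPKM per gene and library, made by the authors with TopHat and Cuffdiff on hg19 and given as 1 table per line of 23273 genes. The annotation, tool versions, placing of shared reads and use of the spike-ins are not given in the sources used here. FPKM gives relative levels, so a change in abundant RNAs moves every other gene: MIR4461, a small RNA gene, held 14.1% to 43.4% of summed FPKM and was higher in replicate 2 of each group.

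From the deposited FPKM, log2(FPKM + 1) was fitted with limma 3.58.1 with trend (R 4.3.3) over genes whose mean reached 1 FPKM in a group. Each line was fitted with 3 groups and no covariate, and the difference between lines came from 1 model of 6 groups. Tests were two-sided, adjusted over all genes tested, with a threshold of 0.01. Cuffdiff itself needs reads. The scripts were tested on simulated data. Every member is named with its values. From the other lists, genes past the threshold were named, at most the 3 largest per list and line, with every list gene past it in a line difference; RefSeq and GENCODE 44 gave sequences and positions. TUBB, DDX39B, TNF, IER3, NFKB1 and IKBKB, and single marker genes, were named after their values were seen. The members and lists were chosen with earlier results of these data known. Alternatives were another constant, other minimums, 2 rescalings, no trend, fewer libraries, a looser threshold, the replicate number as a block and leaving out each library.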

Additional observations from a re-analysis of the deposited data

Results flagged for a closer look

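The response to vemurafenib differed between the 2 lines, by the limma test of the difference itself, for 2 of the 5 members tested (of 10) and for 9 of the 55 other genes of the pathway tested. These counts pool the times and both signs of the difference. At 24 h, a positive difference was called for 1 member and 2 of the 55 pathway genes, where 1.78% of all genes had one. A negative difference was called there for 1 member and 2 pathway genes, against 1.93% of all genes. For 48 h the positive calls were 1 member and 2 pathway genes (all genes 4.19%). The negative calls at that time were 1 member and 6 pathway genes (all genes 3.30%). The values are the log2 change in COLO858 minus that in MMACSF. TNFAIP3 had -2.14 at 24 h and -2.23 at 48 h, with less room to fall in MMACSF, where DMSO libraries held it at 2.90 and 2.88 FPKM. CXCL1 had 3.53 and 3.73, with CXCL1 at no more than 0.109 FPKM in COLO858. IL11 had -1.96 and -1.95, with no MMACSF library above 0.389 FPKM, so that it had no room to fall there. IL1RAP had 2.78 and 3.29, and ZFP36L1 1.09 and 1.39. IL1R1 had -1.31 at 24 h. At 48 h, TNFAIP2 had -1.88, CX3CL1 -1.49, TRAF1 -1.22, CASP4 -1.03 and TNIP1 -0.91. With a single line on each side, these are differences between 2 cell lines.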

How the results depend on the processing

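Of 144 refits of the 10 called values of single members, 131 kept direction and call, 13 lost the call and 0 reversed. TNFAIP3 in COLO858 and CXCL1 in MMACSF kept the call in every refit where they were tested. The count of members called in COLO858, 2 at each time, was 1 at each time with 0.1 FPKM added in place of 1, with a minimum of 10 FPKM, with only the groups compared, and without any 1 library (lowest 1, highest 1); IL8 was the member lost, and at the higher minimum it was no longer tested. In MMACSF the count of 1 became 2 at 24 h with median-ratio rescaling or without trend, 3 with small RNA genes left out, and 3 at a threshold of 0.05. At 48 h it became 2 with small RNA genes left out and 4 at a threshold of 0.05. The line difference at 24 h went from 2 members to 1 with 0.1 FPKM added (CXCL1 lost). The cause was not tested. Counts over the pathway lists became 9 in COLO858 at 48 h, and 3 and 4 in MMACSF at 24 h and 48 h, with small RNA genes left out, and 4 and 4 in MMACSF with median-ratio rescaling. Leaving out small RNA genes moved the median of all genes to 0.24 and 0.20 in COLO858 and 0.12 and 0.11 in MMACSF, against which falls are larger and rises smaller.

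Of 400 refits of the 29 values not called, 13 gained a call and 15 reversed, all near 0. CCL2 at 24 h became -0.025 with median-ratio rescaling, and its line difference 0.025. Leaving out single libraries, NFKBIA ranged from -0.10 to 0.15 (COLO858, 48 h), -0.018 to 0.41 (MMACSF, 24 h), -0.18 to 0.25 (MMACSF, 48 h against 24 h) and -0.055 to 0.37 (line difference, 24 h), and CCL2 from -0.10 to 0.14 (MMACSF, 24 h) and -0.14 to 0.10 (line difference). IL8 from 24 h to 48 h ranged from -0.32 to 0.032 in COLO858 and in the line difference, and TNFAIP3 from -0.18 to 0.012 in the line difference.

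Replicate numbers are shared across groups, but no label ties them to a day or batch, and 2 numbers per line are too few to settle a pairing. Deviations of same-numbered libraries correlated at 0.196 to 0.211 in COLO858 and 0.0628 to 0.113 in MMACSF over all tested genes, and at 0.753 to 0.779 and 0.590 to 0.673 without small RNA genes, a hint from the data that same-numbered libraries go together. With the replicate block the count of members stayed 2 in COLO858 and became 2 in MMACSF at both times (TNFAIP3, adjusted p = 0.00551 and 0.00801). Counts over the pathway lists with the replicate block were 25 and 26 of 48 in COLO858, 13 and 17 of 54 in MMACSF, and 15 and 15 of 55 for the line differences. The block raised the calls over all genes too. At 24 h it called 2949 higher and 2770 lower of 12696 in COLO858, and 1651 and 1633 of 12599 in MMACSF. At 48 h these were 2590 and 2959, and 1867 and 1923. For the line differences it called 1221 and 1175 of 13595 at 24 h, and 1772 and 1662 at 48 h. The block counts are thus no result about the lists or members. With 2 libraries per group and no read counts, low values such as those of IL6, IL1A and IL1B allow no comparison.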
